A study of Mus musculus with 24 samples.

Results

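Genes of the 2-cell-like state were followed through mouse embryonic stem cells (ESCs) of 4 genotypes in 2 pluripotent states. The genes were picked by name, with earlier results of these data known, and no threshold on a measured value was applied: Zscan4c, Zscan4d, Zscan4f, Tcstv1, Tcstv3, Usp17la, Usp17lb and Zfp352. Of these 8, 5 had a row among the 16617 genes of the table, namely Zscan4c, Zscan4d, Tcstv3, Usp17la and Zfp352. Zscan4f, Tcstv1 and Usp17lb are not analysed here. Polyadenylated RNA was read as 3' tags, so that each read falls near the end of a transcript. The lines were wild type (WT), MLL3CD_MLL4CD (CD read as catalytically dead), MLL3KO_MLL4fl (MLL3 knocked out, MLL4 floxed) and MLL3KO_MLL4KO (both knocked out). WT and MLL3CD_MLL4CD cells are labelled as R1, an established mouse ESC line, and the 2 MLL3KO lines carry no cell line label, so the loss of MLL3 and the origin of the line cannot be told apart. MLL3KO_MLL4fl and MLL3KO_MLL4KO share the MLL3 knockout. The sources used here do not state whether a genotype is 1 clone. Each genotype was sampled as naive ESCs, kept in LIF2i medium, and as formative cells, taken 63 h after LIF2i was withdrawn.

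As background, a small fraction of the cells in an ESC culture passes at any time through a state that switches on genes otherwise used by the embryo at the 2-cell stage. Zscan4 proteins, which join a SCAN domain to zinc fingers, are the usual marker of that state and act in telomere maintenance. The transcription factor DUX, helped by DPPA2 and DPPA4, switches the programme on, and chromatin repressors such as TRIM28, SETDB1 and the CAF-1 chaperone hold it down. MLL3 and MLL4 (KMT2C and KMT2D) are the methyltransferases that place monomethylation on histone H3 lysine 4 at enhancers. In bulk RNA, fewer cells in the 2-cell-like state and less RNA per such cell cannot be told apart.

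Zscan4c (ENSMUSG00000054272) lies on chromosome 7 of GRCm38 from 11005745 to 11010547 on the plus strand, and Zscan4d (ENSMUSG00000090714) on the same chromosome from 11161374 to 11166159 on the minus strand. Usp17la (ENSMUSG00000054568), which encodes a deubiquitinating enzyme, lies on chromosome 7 from 104857009 to 104862667. Tcstv3 (ENSMUSG00000095821), of a family transcribed at the 2-cell stage, lies on chromosome 13 from 120316878 to 120318178. Zfp352 (ENSMUSG00000070902), a zinc finger gene, lies on chromosome 4 from 90218820 to 90225702. All 5 are annotated as protein-coding. The promoter windows of Zscan4c (chr7:11005495-11005794, plus strand) and Zscan4d (chr7:11166099-11166398, minus strand) are printed because they show how alike the cluster's copies are. Both are RefSeq sequences of GRCm38.p6, 5′ to 3′, from 250 bases before to 50 after the start, and capitals mark the aligned positions at which the windows differ.
Zscan4c: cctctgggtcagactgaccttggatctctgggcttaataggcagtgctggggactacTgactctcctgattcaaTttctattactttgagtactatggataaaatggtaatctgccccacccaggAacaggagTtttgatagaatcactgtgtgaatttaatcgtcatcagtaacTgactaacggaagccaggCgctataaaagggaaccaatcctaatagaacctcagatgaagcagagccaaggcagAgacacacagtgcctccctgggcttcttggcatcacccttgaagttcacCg
Zscan4d: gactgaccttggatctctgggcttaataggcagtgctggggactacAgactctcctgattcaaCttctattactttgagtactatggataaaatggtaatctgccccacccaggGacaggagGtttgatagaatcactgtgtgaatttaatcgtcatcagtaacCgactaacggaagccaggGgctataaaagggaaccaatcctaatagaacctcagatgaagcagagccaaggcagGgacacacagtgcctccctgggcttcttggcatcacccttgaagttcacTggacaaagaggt
The windows were identical at 281 of 289 aligned positions (97.2%). The window of Zscan4f matched that of Zscan4c at 275 of 277 positions, and those of Usp17la and Usp17lb matched at 249 of 286 (87.1%). The letters TGCACAC, a site that ZSCAN4 proteins are known to bind, were searched on both strands and were found in none of the 6 members' windows given by RefSeq. They occur in 1444 of 32851 promoter windows of 300 bases (4.40%). The table holds no window for Tcstv1 or Tcstv3.

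The likeness extends to the transcript ends that the tags sample. In the last 300 bases of the Zscan4c transcript, 158 of 251 stretches of 50 bases, the read length, recur exactly in another annotated gene. For Zscan4d the number was 119 of 251, for Usp17la 17 of 251, and for Tcstv3 14 or 43 of 251 by transcript. The longer Zfp352 transcript shared 18 of 251 and the shorter none. The sources used here do not state how reads that fit several genes were counted, so the split of reads between Zscan4c, Zscan4d and their copies is uncertain. Zscan4c took between 65.2% (formative MLL3KO_MLL4KO, 15 of 23 counts) and 84.2% (naive MLL3KO_MLL4KO, 16 of 19) of the counts of the pair. The exact binomial 95% intervals of all 8 groups shared the span from 67.6% to 74.9%. They are taken on counts pooled over libraries and leave out differences between libraries, so they are too narrow. In formative WT, library a held 185 counts of Zscan4c and 52 of Zscan4d, and library b 89 and 56. A constant share is therefore not shown.

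The authors deposited 1 mean per gene and group, and the whole counts behind these means were recovered for 23 libraries, named a, b and c by falling depth within a group. Depth ran from 4808564 to 15425959 counts, and the naive WT mean held 2 libraries, the other groups 3. The deposited formative MLL3KO_MLL4KO mean also held a library that is part of the formative MLL3CD_MLL4CD mean, and it was taken out here. The states carried their labels' markers. The summed level of 11 naive markers was 2657 to 3001 CPM, the count scaled to a fixed library total, in naive groups and 562 to 766 CPM in formative ones. For 8 formative markers it was 120 to 215 CPM and 1627 to 2570 CPM, lowest among formative groups in the MLL3KO lines. Feeder or fibroblast markers, 4 of 8 in the table, summed to 1.87 to 3.26 CPM in naive and 8.92 CPM (WT) to 25.5 CPM (MLL3CD_MLL4CD) in formative groups. Of the primitive endoderm markers, 5 of 8 in the table, Gata4 and Gata6 stayed between 0.127 and 2.10 CPM, and the sum, mostly Sparc, was 311 to 783 CPM. Dab2 was at 3.25 CPM in naive WT and 2.32 CPM in naive MLL3KO_MLL4fl cells. It was at 24.6 CPM in naive MLL3KO_MLL4KO and 49.4 CPM in naive MLL3CD_MLL4CD cells, and at 8.44 to 23.6 CPM in formative groups. At an adjusted p under 0.05 (limma), 2 of 4 tested were higher in naive MLL3KO_MLL4KO than in MLL3KO_MLL4fl cells, beside 7.74% of 10778 genes. The 8 germline markers summed to 30.6 to 94.2 CPM in naive and 59.7 to 124 CPM in formative groups. The part of these markers in the results below was not tested.

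The summed level of the 2-cell-like genes separated the lines labelled R1 from the MLL3KO lines. Summed over the 5 genes, each library of WT and MLL3CD_MLL4CD held 7.87 to 31.9 CPM, and each library of the MLL3KO lines 0 to 2.61 CPM. The mean sum was 27.9 ± 4.40 CPM (SD, n = 3) in formative WT and 12.001 ± 2.87 CPM (n = 2) in naive WT cells. It was 12.3 ± 2.27 and 8.03 ± 0.146 CPM in formative and naive MLL3CD_MLL4CD cells (n = 3 each). In MLL3KO_MLL4fl cells it was 1.04 ± 0.591 CPM in the naive and 0.402 ± 0.376 CPM in the formative state, and in MLL3KO_MLL4KO cells 0.798 ± 0.404 and 1.80 ± 0.742 CPM (n = 3 each). Counts of Zscan4c totalled 790 over the 11 libraries of WT and MLL3CD_MLL4CD, of which the lowest had 2.79 CPM, and 57 over the 12 libraries of the MLL3KO lines, of which the highest had 1.46 CPM. Zscan4d (311 against 18 counts) and Tcstv3 (330 against 8) did not overlap between the 2 sets of libraries either. For Usp17la (164 against 11), 9 of 11 libraries stood above every MLL3KO library, and for Zfp352 (95 against 19), 3 of 11. The sets differ in line as well as in MLL3, and no test was made between them. The share of all genes that lie apart between these sets was not counted, so the separation is a description and cannot be called particular to these genes. The genes passed the filter on low counts (0.981 CPM in at least 3 libraries) through WT and MLL3CD_MLL4CD libraries, joined by 2 MLL3KO libraries for Zscan4c and 1 for Zfp352. Passing that filter therefore favours genes that are high there, and the counts of calls of MLL3KO_MLL4fl against WT are a description.

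**Figure D1:**
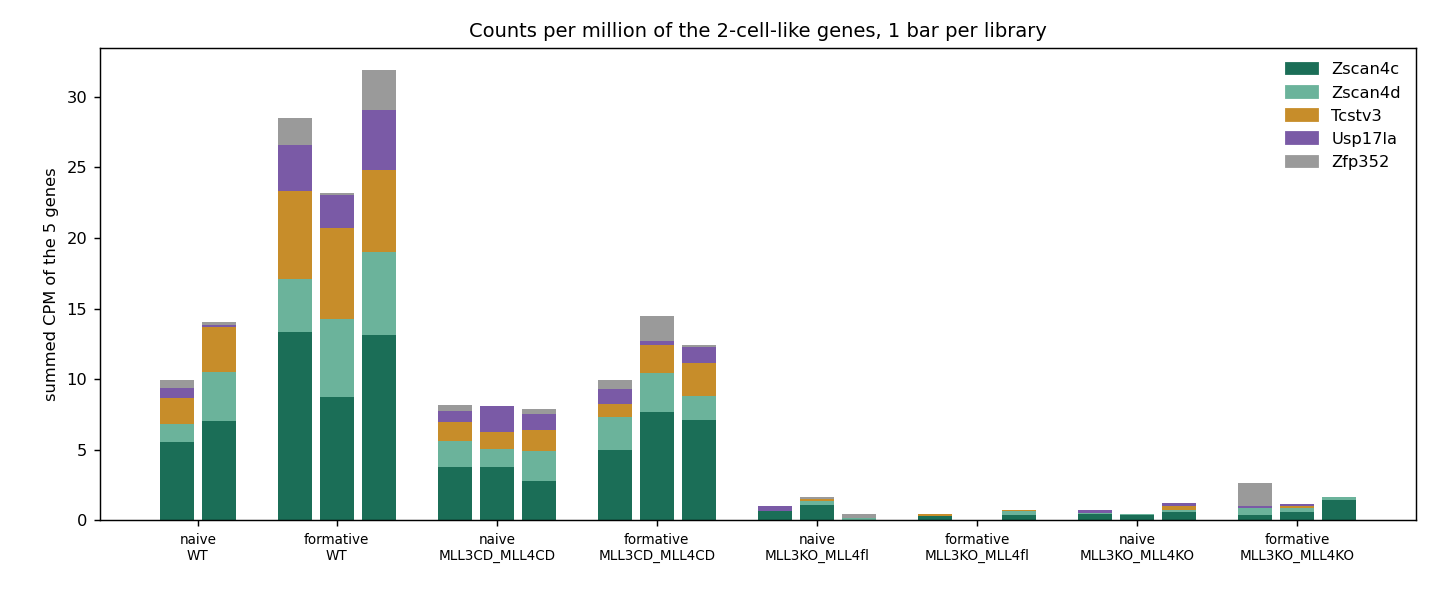
Stacked CPM (y axis) of Zscan4c, Zscan4d, Tcstv3, Usp17la and Zfp352, 1 bar per library, grouped by state and line on the x axis. Formative WT libraries reach 23.2 to 31.9 CPM, and no MLL3KO library exceeds 2.61 CPM, with Zfp352 the main part of that highest one.

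The first comparison asked how these genes behave when WT cells leave the naive state. Zscan4c, Zscan4d, Tcstv3 and Usp17la rose, by 1.93-fold to 6.70-fold, and Zfp352 did not pass the test. Zscan4c read 5.55 and 7.01 CPM in the naive WT libraries and 13.3, 8.73 and 13.2 CPM in the formative ones. All formative libraries were above both naive ones. The log2 difference was 0.86 (SE 0.30, adjusted p = 0.0257, limma), where a log2 difference is taken on log2 CPM with a prior count of 2 and so understates changes of low genes. Zscan4d read 1.26 and 3.51 CPM in naive and 3.75, 5.49 and 5.85 CPM in formative WT libraries. Its naive libraries differed by 2.77-fold, and the highest of them lay just under the lowest formative one (log2 difference 1.14, SE 0.39, adjusted p = 0.0236). Tcstv3 was at 1.83 and 3.17 CPM in naive and at 6.27, 6.48 and 5.85 CPM in formative WT libraries. The formative values of Tcstv3 lay close together, and the difference was 1.29 log2 (SE 0.35, adjusted p = 0.00428). Usp17la gave 10 and 1 counts in the naive WT libraries (0.702 and 0.113 CPM) and 45, 24 and 32 counts in the formative ones (3.24, 2.35 and 4.25 CPM). It had the largest log2 difference of the 5, 2.66 (SE 0.57, adjusted p = 0.000495). Zfp352 read 0.632 and 0.226 CPM in naive and 1.94, 0.0981 and 2.79 CPM in formative WT libraries. Formative library b, with 1 count of Zfp352, was below both naive libraries, and the difference was 1.06 log2 (SE 0.87, adjusted p = 0.389).

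Thus 4 of the 5 genes were higher in formative WT cells at an adjusted p under 0.05, beside 19% of the 11286 genes tested. Their libraries did not overlap for the same 4, beside 30.6% of genes tested that lay wholly higher. The median log2 difference of the 5 was 1.14, against 0.16 over all genes tested. Both naive WT libraries of Usp17la (0.702 and 0.113 CPM) lay under the level of the filter, 0.981 CPM, so this gene was tested through other libraries. Leaving out naive WT library a left 1 call, Usp17la (3.42, adjusted p = 0.00162), with Zscan4c at 0.70 (adjusted p = 0.241), Zscan4d at 0.47 (0.510) and Tcstv3 at 0.92 (0.1502). Without naive WT library b, which holds 1 count of Usp17la, Usp17la was at 1.91 (adjusted p = 0.0349). Without formative WT library c, Zscan4c (0.77, adjusted p = 0.0745) and Zscan4d (1.02, 0.0642) were lost, without formative WT library a Zscan4c was lost (0.76, 0.0931), and without formative WT library b Zfp352 was gained (2.08, 0.0282). Scaling by size factors, which moved the median of all genes to 0.01, kept Tcstv3 (1.14, adjusted p = 0.0120) and Usp17la (2.58, 0.000667) and left Zscan4c at 0.71 (0.0682) and Zscan4d at 0.995 (0.0530).

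**Figure D2:**
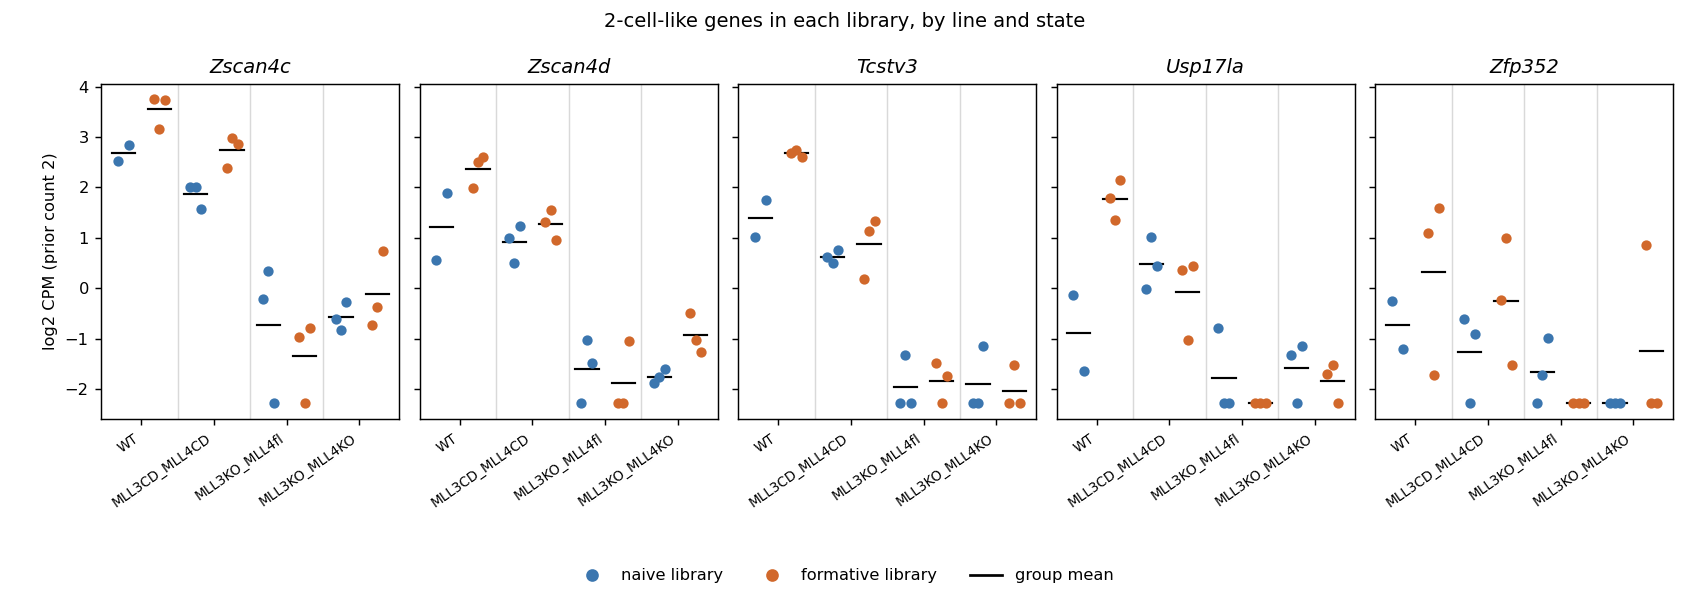
log2 CPM with a prior count of 2 (y axis) of each gene in each library (points) and the group means (bars), by line on the x axis, naive in blue and formative in orange. Points on the lowest line are libraries with 0 counts, which for Tcstv3, Usp17la and Zfp352 are common in the MLL3KO lines.

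In MLL3CD_MLL4CD cells the same conversion gave 0 of 5 calls with limma (28.8% of 10985 genes tested were called). At an unadjusted p under 0.05 it gave 1 gene, Zscan4c, and the share of all genes at that level was not counted. Zscan4c read 3.80, 3.80 and 2.79 CPM in naive and 5.01, 7.66 and 7.08 CPM in formative libraries. Its libraries did not overlap, beside 25.9% of all genes tested that lay wholly higher. The log2 difference of 0.88 (SE 0.36, 95% interval 0.14 to 1.62) had an adjusted p of 0.0667. The call was made without formative MLL3CD_MLL4CD library a (1.06, adjusted p = 0.0461) and with the 2 groups fitted alone (adjusted p = 0.0422). Zscan4d read 1.79, 1.22 and 2.13 CPM in naive and 2.29, 2.74 and 1.73 CPM in formative libraries, which overlapped (0.37, interval -0.52 to 1.26). Tcstv3 lay at 1.341, 1.22 and 1.48 CPM in naive and 0.9303, 1.99 and 2.31 CPM in formative libraries, with 1 formative library below all naive ones (0.25, -0.68 to 1.18). Usp17la stood at 0.783, 1.83 and 1.148 CPM in naive and 1.07, 0.284 and 1.16 CPM in formative libraries (-0.56, -1.67 to 0.56). Zfp352 read 0.447, 0 and 0.328 CPM in naive and 0.644, 1.80 and 0.145 CPM in formative libraries (1.02, -0.62 to 2.66).

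Whether the conversion differed between MLL3CD_MLL4CD and WT cells was tested directly as an interaction. Usp17la differed by -3.22 log2 (SE 0.80, adjusted p = 0.0179), the 1 call of 5, beside 1.28% of 10536 genes tested that were lower. For Zscan4c the interaction was 0.01 (95% interval -0.94 to 0.97), for Zscan4d -0.77 (-1.97 to 0.43), for Tcstv3 -1.04 (-2.21 to 0.14) and for Zfp352 -0.04 (-2.42 to 2.35). For Zscan4c the interval only just lay within 1 log2 unit of 0 in this fit (SE 0.47). Without naive WT library b the value was -0.15 with an SE of 0.52, so a difference of 1 log2 unit is not excluded. The Usp17la call was lost without naive WT library b, which holds 1 count (-2.46, adjusted p = 0.132), without naive MLL3CD_MLL4CD library b (-2.95, 0.0649), without formative MLL3CD_MLL4CD library b (-2.74, 0.0596), and with a prior count of 0.5 (-3.89, 0.0560).

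Compared with WT in the formative state, MLL3CD_MLL4CD cells had lower Zscan4d, Tcstv3 and Usp17la. Tcstv3 fell by 1.79 log2 (SE 0.34, adjusted p = 0.000728), from 6.20 ± 0.321 to 1.74 ± 0.722 CPM (SD, n = 3 each), a ratio of pooled counts of 3.92. Usp17la fell by 1.84 log2 (SE 0.46, adjusted p = 0.00850), from 3.28 ± 0.949 to 0.838 ± 0.482 CPM, and Zscan4d by 1.09 log2 (SE 0.34, adjusted p = 0.0436), from 5.03 ± 1.12 to 2.26 ± 0.505 CPM. Zscan4c stood at 11.7 ± 2.60 and 6.58 ± 1.39 CPM, with no overlap (-0.81, SE 0.27, adjusted p = 0.0546). Zfp352 overlapped (-0.57, interval -1.98 to 0.83). The 3 calls of 5 stand beside 3.15% of 10794 genes that were lower, and the 4 of 5 without overlap beside 11.1%. The median log2 difference of the 5 was -1.09, against 0.06 over all genes. Of the 4 feeder markers in the same comparison, Col1a2 (2.47 log2, adjusted p = 6.84e-05) and Dcn (2.41, adjusted p = 4.30e-06) were higher, while Thy1 (-0.91, adjusted p = 0.174) and Col1a1 (-0.68, 0.474) did not pass. Of 7 germline markers tested, Stra8 (2.29) and Slc25a31 (0.62) were higher, beside 4.66% of all genes tested. The part of these markers in the result was not tested. The Usp17la call was lost without formative MLL3CD_MLL4CD library b (-1.37, adjusted p = 0.0880). The Zscan4d call was lost without formative MLL3CD_MLL4CD library a (-1.11, adjusted p = 0.121), b (-1.23, 0.0675) or c (-0.92, 0.153) and without formative WT library b (-1.01, 0.11) or c (-0.97, 0.116). It was also lost without weights (0.233), with a prior count of 0.5 (0.0729) and with the 2 groups fitted alone (0.0844), and passed in 4 of 12 alternatives. Zscan4c was called without formative WT library b (-1.01, 0.0220) and with size factors (-0.90, 0.0307).

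In the naive state MLL3CD_MLL4CD against WT gave 0 of 5 calls with limma, beside 10.7% of 12239 genes called. At an unadjusted p under 0.05 were 2 of 5, in opposite directions, and the share of all genes at that level was not counted. Zscan4c was at 3.46 ± 0.585 CPM (n = 3) against 6.28 ± 1.04 CPM (n = 2), without overlap (-0.83, 95% interval -1.61 to -0.04, adjusted p = 0.181). Usp17la was at 1.25 ± 0.529 against 0.408 ± 0.417 CPM (1.38, 0.05 to 2.70, adjusted p = 0.185), with all 3 mutant libraries above both WT libraries. Tcstv3 was at 1.35 ± 0.13 against 2.497 ± 0.949 CPM, also without overlap (-0.76, -1.69 to 0.17). Zscan4d was at 1.71 ± 0.462 against 2.39 ± 1.59 CPM (-0.31, -1.28 to 0.65) and Zfp352 at 0.258 ± 0.232 against 0.429 ± 0.287 CPM (-0.54, -2.51 to 1.44), both with overlap. Libraries thus did not overlap for 3 of 5 genes, beside 15.5% of all genes tested that lay wholly lower and 23.8% wholly higher.

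MLL3KO_MLL4fl cells were also set against WT, a comparison that holds both the MLL3 genotype and the line. In the formative state all 5 genes were lower in MLL3KO_MLL4fl cells, and no libraries overlapped, beside 5.22% of 10519 genes called lower and 13.1% wholly lower. The median log2 difference of the 5 was -4.24, against 0.01 over all genes. Formative markers summed to 1627 CPM in these cells and 2570 CPM in WT. Of the 4 feeder markers, whose sum was 18.1 against 8.92 CPM, Dcn was higher (2.21 log2, adjusted p = 8.85e-06), beside 3.86% of all genes. Of 7 germline markers tested Slc25a31 (-1.80, adjusted p = 8.55e-06) and Taf7l (-0.95, 0.0475) were lower, beside 5.22%. The part of these markers in the result was not tested. Zscan4c gave 4, 0 and 4 counts in formative MLL3KO_MLL4fl libraries (0.305, 0 and 0.373 CPM) against 185, 89 and 99 in WT. That was -4.90 log2 (SE 0.50, adjusted p = 2.74e-08), and the pooled WT level was 52.6 times higher. Zscan4d gave 0, 0 and 3 counts against 52, 56 and 44 (-4.24, adjusted p = 1.57e-07), a pooled ratio of 57.1 with an exact 95% counting interval of 19.2 to 280.0. Tcstv3 gave 2, 0 and 1 counts against 87, 66 and 44 (-4.52, adjusted p = 1.00e-08), a ratio of 74.0 with an interval of 25.0 to 362. Usp17la and Zfp352 gave 0 counts in all 3 formative MLL3KO_MLL4fl libraries, which allows up to 0.0842 CPM (3 counts over the group). Usp17la was therefore at least 37.9-fold lower than in WT (-4.05, adjusted p = 7.36e-07) and Zfp352, by pooled counts, at least 18.4-fold lower (-2.61, adjusted p = 0.0219). The formative WT libraries held 27, 1 and 21 counts of Zfp352. Its lack of overlap thus rests on 1 count against 0 in library b, and its pooled floor on libraries a and c. These intervals and floors cover counting error of pooled counts only and leave out differences between libraries. The reads also carry no molecular identifiers, so duplicate reads are not told apart. The Zfp352 call was lost without any 1 of the 3 MLL3KO_MLL4fl libraries (-2.61 each, adjusted p = 0.0655 to 0.0734) and without formative WT library a (-2.22, 0.121) or c (-1.98, 0.127), and with the 2 groups fitted alone (0.0856).

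In the naive state, Zscan4c, Zscan4d and Tcstv3 were lower in MLL3KO_MLL4fl than in WT cells, 3 of 5 genes beside 3.2% of 11733 genes called lower. Zscan4c read 0.652, 1.06 and 0 CPM against 5.55 and 7.01 CPM in WT (-3.41, SE 0.53, adjusted p = 4.87e-05). Zscan4d read 0, 0.288 and 0.151 CPM against 1.26 and 3.51 CPM (-2.82, SE 0.54, adjusted p = 0.000778), a call lost without naive WT library b (-2.15, adjusted p = 0.0517). Tcstv3 read 0, 0.192 and 0 CPM against 1.83 and 3.17 CPM (-3.36, SE 0.50, adjusted p = 2.69e-05). Usp17la (-0.89, interval -2.26 to 0.48) and Zfp352 (-0.93, -2.89 to 1.03), each with 11 counts in naive WT cells, overlapped between the groups. With only these 2 groups in the fit, Tcstv3 kept its call, while Zscan4c (adjusted p = 0.0929) and Zscan4d (0.123) did not.

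**Figure D3:**
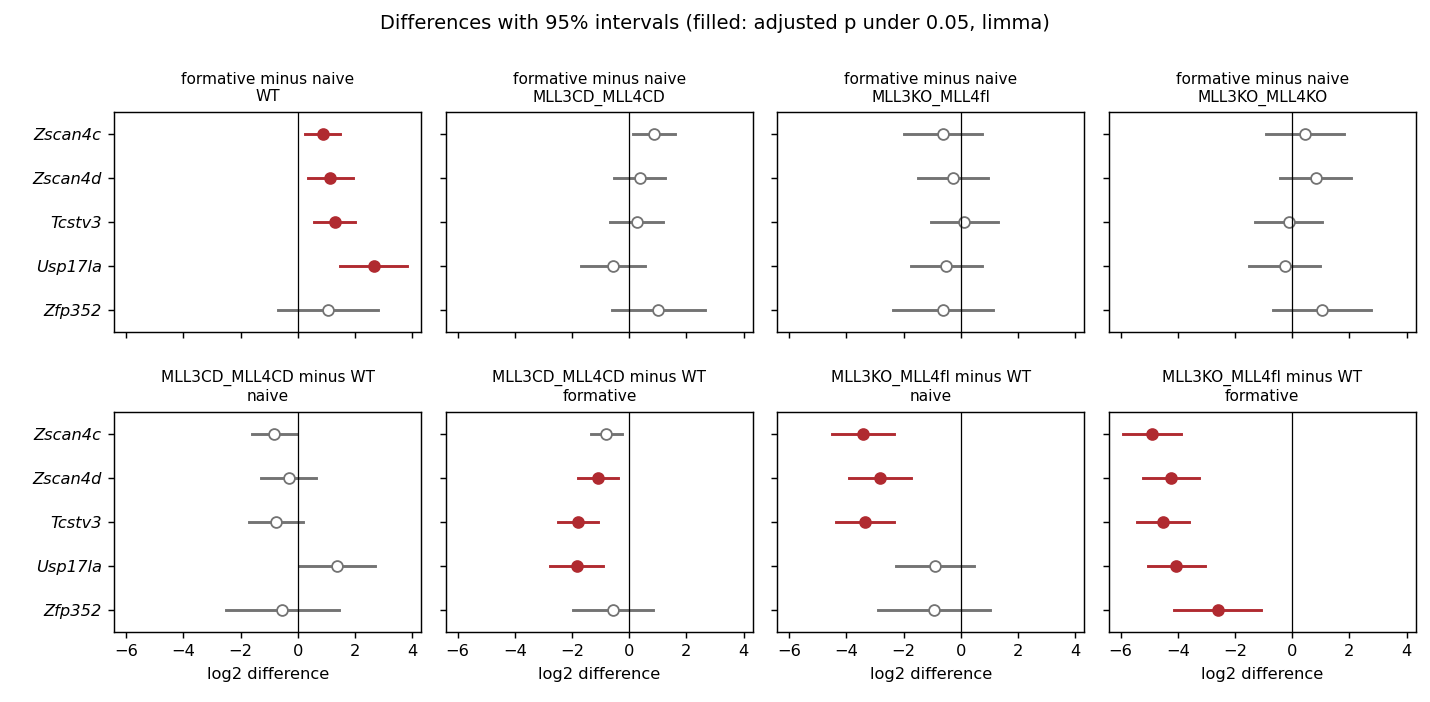
log2 differences (x axis, points) with 95% intervals (lines) of the 5 genes in 8 comparisons, with filled red points where limma's adjusted p was under 0.05. The WT conversion has 4 filled points to the right of 0, and MLL3KO_MLL4fl against WT in the formative state has 5 to the left.

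Within the MLL3KO lines the genes stayed near the limit of detection. The conversion gave 0 of 5 calls with limma in MLL3KO_MLL4fl cells (32.6% of 10476 genes called) and 0 of 5 in MLL3KO_MLL4KO cells (25.5% of 10266), and none at an unadjusted p under 0.05. Zscan4c read 0.454, 0.355 and 0.619 CPM in naive and 0.401, 0.571 and 1.46 CPM in formative MLL3KO_MLL4KO libraries. The log2 difference was 0.45 with an interval of -0.91 to 1.82, and in MLL3KO_MLL4fl cells -0.62 with an interval of -1.98 to 0.73. The interval in MLL3KO_MLL4KO cells holds the 0.86 measured in WT, so a change of that size is not excluded there. In MLL3KO_MLL4fl cells the interval ends below 0.86, and the difference ran from -1.41 to -0.09 with 1 library left out. The prior count shrinks changes at such counts in both lines, so neither interval is a firm limit on the change. Zscan4d gave 1 count in each naive MLL3KO_MLL4KO library and 5, 2 and 1 in the formative ones (0.501, 0.285 and 0.208 CPM), without overlap (0.82, interval -0.41 to 2.05). Over all genes tested, 31.4% lay wholly higher in that conversion. Zfp352 had 0 counts in the naive MLL3KO_MLL4KO libraries and 16, 0 and 0 in the formative ones, all in library a (1.604 CPM). In that library Zfp352 made up 61.5% of the 5 genes' counts, and Zscan4c 15.4%.

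The further loss of MLL4 also gave 0 of 5 calls with limma, in naive cells (16.9% of 10778 genes called) and in formative cells (16.5% of 10342), with 0 of 5 at an unadjusted p under 0.05 in each. Zscan4c in formative cells was at 0.809 ± 0.566 CPM in MLL3KO_MLL4KO and 0.226 ± 0.199 CPM in MLL3KO_MLL4fl (SD, n = 3 each), without overlap (1.23, interval -0.14 to 2.60, adjusted p = 0.232). Over all genes tested, 18.7% lay wholly higher in formative MLL3KO_MLL4KO cells. The interaction between these 2 conversions gave 0 of 5 calls (7.7% of 9731 genes called) and 0 of 5 at an unadjusted p under 0.05. The library shared with MLL3CD_MLL4CD bears on these values. It holds 49 counts of Zscan4c (7.08 CPM), and with it, as deposited, the formative MLL3KO_MLL4KO mean of Zscan4c would stand 0.75 log2 higher, that of Tcstv3 0.84, of Usp17la 0.57 and of Zscan4d 0.47. The difference from formative MLL3KO_MLL4fl cells would then be 1.98 for Zscan4c (adjusted p = 0.0766), and still no gene would be called.

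The conversion in MLL3KO_MLL4fl cells was also set against that in WT cells, a comparison added after the data were seen. It gave 0 of 5 calls with limma (1.16% of 10203 genes called). At an unadjusted p under 0.05 were 2 of 5, Zscan4c and Usp17la, and the share of all genes at that level was not counted. Usp17la differed by -3.16 log2 (SE 0.84, adjusted p = 0.0520), and passed without formative WT library b (-3.37, adjusted p = 0.0334). Zscan4c differed by -1.49 (interval -2.97 to -0.0042, adjusted p = 0.384).

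A list of 43 other genes of the 2-cell-like state, chosen like the members with earlier results of these data known, had 14 in the table. In the WT conversion 5 of the 10 tested rose, beside 19% of all genes tested: B020004J07Rik (3.02 log2), Spz1 (2.38), the Usp17 family gene Usp17lc (1.65), the Zscan4 copy Zscan4-ps1 (1.41) and Gm21319 (1.32). None fell, and the median was 1.06. B020004J07Rik and Spz1 reached the level of the filter in 4 libraries each. By the group means they were at 0.0325 and 0.127 CPM in naive WT and at 1.71 and 1.52 CPM in formative WT cells. Passing the filter thus favours genes that are high in formative WT cells, and this count is a description. In formative MLL3KO_MLL4fl against WT cells 9 of 10 were lower, beside 5.22% of all genes, with a median of -3.08. Of these 9 genes, 8 passed the filter through WT and MLL3CD_MLL4CD libraries alone, so this count is a description too. Gm2022, of the Eif1a-like genes, went from 5.57 ± 0.929 CPM to 0 counts in all 3 libraries, at least 67.6-fold lower (-4.80, adjusted p = 1.00e-08). Usp17lc (-4.46), Gm8300 (-3.92), Zscan4-ps1 (-3.78), Tmem92 (-3.09) and Spz1 (-3.07) followed. In naive MLL3KO_MLL4fl against WT cells 8 of 14 were lower, beside 3.2% of all genes, with a median of -2.45. They were led by Gm8300 (-4.44), Gm21761 (-4.43), Gm5662 (-4.33) and Gm2022 (-3.78). Gm5662 and Gm2022 reached the level of the filter in 0 MLL3KO libraries. Passing the filter again favours genes that are high in WT and MLL3CD_MLL4CD cells, so this count is likewise a description.

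In MLL3CD_MLL4CD against WT cells 2 of 10 were lower in the formative state (3.15% of all genes), Gm2022 (-1.33, adjusted p = 0.0122) and Zscan4-ps1 (-1.25, 0.0311). In the naive state 1 of 13 was lower (4.7% of all genes), Gm2022 (-1.67, 0.0162). Tmem92, a membrane protein gene, stood at 3.86 ± 0.394 CPM in formative MLL3CD_MLL4CD and 4.55 ± 0.964 CPM in formative WT cells. In the conversion 2 of 12 rose in MLL3CD_MLL4CD cells, B020004J07Rik (1.96) and Zscan4-ps3 (1.47), beside 18.3% of all genes. In MLL3KO_MLL4KO cells 2 of 12 rose, Gm20767 (1.85) and Gm8300 (1.66), beside 20.6%, and in MLL3KO_MLL4fl cells 1 of 14, Ddit4l (0.65), beside 21.8%. These counts are near or below the share over all genes. Gm20767 had the opposite order of lines. It held 25 counts over the 11 WT and MLL3CD_MLL4CD libraries and 196 over the 12 MLL3KO libraries, 109 of them in formative MLL3KO_MLL4KO cells (4.81 ± 1.10 CPM), where it was 2.51 log2 above MLL3KO_MLL4fl (adjusted p = 0.000528). Gm8300 was 1.80 log2 higher in the same comparison (adjusted p = 0.0430), with overlapping libraries.

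**Figure D4:**
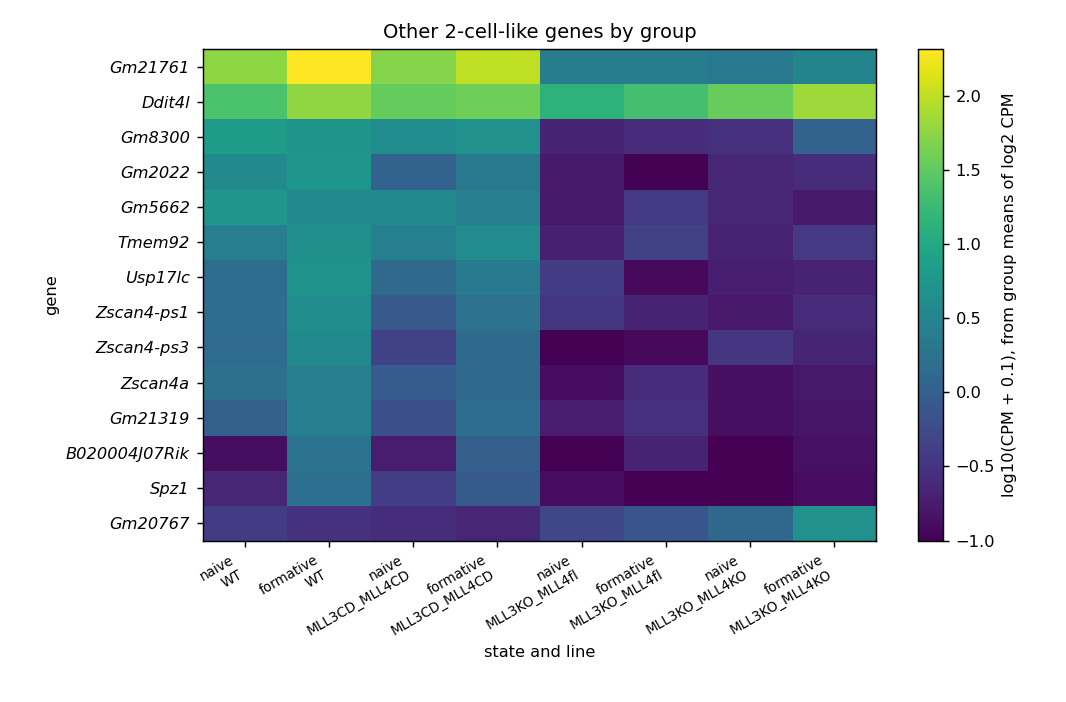
Level of 14 other 2-cell-like genes (rows) in 8 groups (columns) as log10(CPM + 0.1), from the group means, with the shared library taken out of formative MLL3KO_MLL4KO. Most rows are dark in the 4 MLL3KO columns, and Gm20767, at the bottom, is brightest in formative MLL3KO_MLL4KO cells, at 4.74 CPM from the mean log2.

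Known regulators could be tested in part. Of 10 activators on the list 8 were in the table, and Dux itself is not analysed here. Library values were recovered for Gata2 and Gata3. Both were higher in naive MLL3CD_MLL4CD than in WT cells (2.07 and 0.96 log2), beside 5.98% of all genes tested. Both were also higher in formative MLL3KO_MLL4KO than in MLL3KO_MLL4fl cells (1.93 and 0.99), beside 10.3%. In the WT conversion and in MLL3KO_MLL4fl against WT 0 of 2 passed, adjusted or not. Gata2 was also higher in naive MLL3KO_MLL4KO than in MLL3KO_MLL4fl cells (1.80, adjusted p = 0.000414), beside 7.74% of all genes. In the conversion Gata2 fell in MLL3KO_MLL4fl (-1.60), MLL3KO_MLL4KO (-1.46) and MLL3CD_MLL4CD (-1.74) cells, beside 10.8%, 4.96% and 10.5% of all genes. The other 6 had no library values in the groups compared and were not tested. Among their group means, Dppa2, chosen after its values were seen, was at 117 CPM in naive WT, 112 CPM in naive MLL3KO_MLL4fl and 19.9 CPM in naive MLL3KO_MLL4KO cells. In the formative state Dppa2 was at 87.0 CPM in WT, 41.6 CPM in MLL3KO_MLL4fl and 46.0 CPM in MLL3KO_MLL4KO cells. Dppa4, likewise chosen, was at 471, 234 and 289 CPM in these formative groups. In the naive state Dppa4 was at 413 CPM in WT, 566 CPM in MLL3KO_MLL4fl and 289 CPM in MLL3KO_MLL4KO cells, so it was not lower in MLL3KO_MLL4fl than in WT there. Of 27 repressors, all in the table, 4 to 8 were tested per comparison and 0 passed in any of the 13 with limma. Over all genes the share called in these comparisons ran from 1.16% to 32.6%. Per comparison 0 or 1 repressors had an unadjusted p under 0.05, and the share of all genes at that level was not counted. Hdac1, a histone deacetylase gene named after its values were seen, was at 11.4 to 15.5 CPM by the means of the 4 WT and MLL3CD_MLL4CD groups and at 62.3 to 68.5 CPM in the 4 MLL3KO groups. It was not tested in MLL3KO_MLL4fl against WT.

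Across the 8 group columns, the genes most like the mean profile of the 5 members were sought among 10879 genes that spanned at least 1 log2. The closest were Gm21761 (Pearson r = 0.988), the long noncoding RNA AU019990 (0.988), Usp17lc (0.986), Gm8994 (0.983) and Zscan4-ps1 (0.976). These correlations are descriptions over 8 means that share libraries, and 3 of the 5 genes were already on the list of 2-cell-like genes. By the group means Gm21761 read 56.3 CPM in naive and 208 CPM in formative WT cells, against 2.42 and 2.41 CPM in MLL3KO_MLL4fl cells. Gm21761 also shares stretches of its sequence with the end of Tcstv3. At its own end the longer Usp17lc transcript shares 17 of 251 stretches of 50 bases with Usp17la. Zscan4-ps1 shares 36 of 251, Zscan4a 151 and Zscan4-ps3 158 with other Zscan4 genes that include Zscan4d. These genes and the members may thus in part count the same reads, so the correlations and the counts on that list are not independent of the members. Among the members, the profile of each gene against the mean of the other 4 had an r between 0.894 (Usp17la) and 0.993 (Zscan4d).

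The order of the groups was the same for Zscan4c, Zscan4d and Tcstv3 at its top and in its break. Formative WT led, without overlap with the next group, and the lowest of the 4 WT and MLL3CD_MLL4CD groups, naive MLL3CD_MLL4CD, did not overlap the highest MLL3KO group. Naive WT and formative MLL3CD_MLL4CD libraries, which stand next to each other in that order, overlapped for all 3. Neighbouring MLL3KO groups overlapped for all 3 as well. For Usp17la formative WT (3.28 CPM) was followed without overlap by naive MLL3CD_MLL4CD (1.25 CPM), and all later neighbours overlapped. For Zfp352 every pair of neighbours overlapped.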

How the data were processed

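QuantSeq 3' FWD libraries were made from 200 ng of Trizol-extracted RNA and read single-end for 50 bases, per the labels' protocols. Per the submitters' processing notes, the tools were FastQC 0.11.8, MultiQC, cutadapt 2.5, STAR, featureCounts (Subread 1.6.4) and DESeq2 1.34.0, with the build mm10. The authors deposited group means of log2 CPM in which a prior count of 2 is scaled by each library's size, as checked on the values. The column named CKO was read as MLL3KO_MLL4fl. Whole counts per library were recovered from the means, which fix them for genes of low to moderate count, so abundant genes have no test. This recovery was tested on simulated data. Of 24 libraries 23 were found, and 1 of the 4 in the formative MLL3KO_MLL4KO mean was also in formative MLL3CD_MLL4CD and was removed from the former.

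Differences were tested with limma 3.58.1 (R 4.3.3) in 1 model of 8 groups, with weights from a lowess trend (span 0.3) of SD on count, and Benjamini-Hochberg adjustment over all genes tested in a comparison. Genes needed the CPM of 10 counts at the median library size in at least 3 libraries (16539 passed). Per the series' design text, the replicates came from separate cultures. Members, lists and tests were chosen with earlier results of these data known. Named were all members, at most 6 genes past the threshold per list and comparison, and the 5 genes most like the members. Alternatives were no weights, size factors, only the groups compared, no filter or 30 counts, a prior count of 0.5, each library left out, and the formative knockout mean as deposited. Promoters are from RefSeq (6 of 8 members matched), and gene positions and transcript ends from GENCODE vM21.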

Additional observations from a re-analysis of the deposited data

Results flagged for a closer look

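The conversion from naive to formative cells differed between MLL3CD_MLL4CD and WT cells for Usp17la, by -3.22 log2 (SE 0.80, adjusted p = 0.0179, limma). The test of the difference itself passed the threshold, which put it here. WT rose by 2.66 log2, all 3 formative libraries lying above both naive ones, while MLL3CD_MLL4CD libraries overlapped (-0.56, adjusted p = 0.493). The value rests on low counts, 10 and 1 in the naive WT libraries, and was lost without naive WT library b (-2.46, adjusted p = 0.132).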

How the results depend on the processing

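Of the members' differences, 357 values under another setting and 397 with 1 library left out kept their direction and their side of the threshold, 14 and 21 were no longer called, 2 and 4 became called, and 6 and 33 changed sign. The number of members higher in the WT conversion (4) was 1 without weights, 2 with size factors, 2 with only the groups compared, and 1 to 5 with 1 library left out. In MLL3CD_MLL4CD cells the number (0) was 1 with only the groups compared and 0 to 1 with 1 library left out. For MLL3KO_MLL4fl against WT the number of members lower was 1 with only the groups compared (3, naive). It was 3 under the stricter filter (5, formative), where Usp17la and Zfp352 were not tested. For MLL3CD_MLL4CD against WT in formative cells the number lower (3) was 1 to 3 with 1 library left out and 1 to 4 over all settings. There Zscan4d was lost without weights, with a prior count of 0.5 and with only the groups compared, and Zscan4c was gained with size factors. In formative MLL3KO_MLL4fl against WT cells Zfp352 was lost with only the groups compared. The 1 call in the difference of the MLL3CD_MLL4CD and WT conversions was 0 under the stricter filter, which leaves Usp17la untested, 0 with a prior count of 0.5, and 0 to 1 with 1 library left out. For MLL3KO_MLL4fl and WT it (0) was 0 to 1. Unless stated, the cause was not tested.

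Differences that changed sign had no call in the reported fit or in the other. With the formative MLL3KO_MLL4KO mean as deposited, which holds the shared library, Tcstv3 was 0.71 and Usp17la 0.32 in the conversion, and Tcstv3 was 0.65 against MLL3KO_MLL4fl and 0.58 in the difference of conversions. Zfp352 in the difference of MLL3CD_MLL4CD and WT conversions was 0.011 with size factors and 0.45 with a prior count of 0.5. With 1 library left out, that value ran from -1.06 to 0.60 and that of Zscan4c from -0.18 to 0.19. In the MLL3KO_MLL4fl conversion Zscan4d ran from -0.69 to 0.016 and Tcstv3 from -0.048 to 0.45, and in the MLL3KO_MLL4KO conversion Tcstv3 from -0.38 to 0.25 and Zfp352 from 0 to 1.57. In the difference of these conversions Tcstv3 ran from -0.58 to 0.12 and Usp17la from -0.26 to 0.49. For naive MLL3KO_MLL4KO against MLL3KO_MLL4fl the ranges were -0.63 to 0.68 (Zscan4c), -0.50 to 0.13 (Zscan4d), -0.32 to 0.38 (Tcstv3) and -0.046 to 0.70 (Usp17la). For MLL3CD_MLL4CD against WT they were -0.98 to 0.35 (Zscan4d, naive) and -1.59 to 0.061 (Zfp352, formative).

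Size factors moved the share of higher calls over all genes from 80.6% to 63.7% in the MLL3KO_MLL4KO conversion, and for MLL3CD_MLL4CD against WT from 56.0% to 39.5% (naive) and from 59.7% to 45.6% (formative). No paired analysis was possible because the recovered libraries carry no replicate number. Each MLL3KO library holds 0 to 16 counts of a member, which limits what can be seen there. Naive WT rests on 2 libraries.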
